A study of Bos taurus with 6 samples.

Results

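The receptors through which a granulosa cell senses gonadotropins, metabolic hormones and steroids were examined as a group of 9 genes. They were the receptors of follicle stimulating hormone (FSHR) and luteinizing hormone (LHCGR), of prolactin (PRLR), growth hormone (GHR) and insulin (INSR), the nuclear receptors of progesterone (PGR) and glucocorticoids (NR3C1), and the membrane-associated progesterone receptor components PGRMC1 and PGRMC2. Every probe annotated to 1 of these symbols was taken, whatever its signal, which gave 14 of the 43794 gene probes on the array. LHCGR had 2 probes, PGRMC1 and PGRMC2 had 3 each, and the other 6 genes had 1 each.

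The RNA came from granulosa cells, the steroid-producing cells that line the follicle. They were aspirated from pre-ovulatory follicles of multiparous Holstein cows, and every cow, controls included, had been stimulated with gonadotropins and then coasted, with 68 hours between the last FSH injection and ovum pick-up. The 3 treated cows had been given cetrotide (cetrorelix), which blocks the pituitary receptor of gonadotropin releasing hormone and so reduces secretion of luteinizing hormone (LH), and the 3 control cows had not. Each of the 6 two-colour arrays carried cetrotide RNA in one dye and control RNA in the other, with cetrotide RNA in Cy5 on the 3 arrays of slide 1 and in Cy3 on the 3 arrays of slide 2. The slide 1 and slide 2 arrays of equal area number were averaged into 1 dye-swap replicate, so that n = 3 throughout. The labels give no dose of cetrotide, no day on which it was given and no word on which cows share an array.

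FSHR and LHCGR are receptors of the cell surface that signal mainly through the stimulatory G protein and cyclic AMP. In granulosa cells FSH drives follicle growth and oestradiol synthesis through FSHR, and the acquisition of LHCGR lets a dominant follicle respond to the ovulatory LH surge. PRLR and GHR are cytokine receptors that act through JAK kinases and STAT factors, INSR is a receptor tyrosine kinase, and PGR and NR3C1 are transcription factors activated by their steroid. PGR is best known in granulosa cells as a gene that the LH surge induces, and PGRMC1 as a haem-binding membrane protein linked to the survival effects of progesterone.

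The 153 negative control spots of each array and channel set a background limit, their 95th percentile, and a brighter spot was taken as above background. Per array and RNA, 53.5% to 82.5% of the probes were above that limit, and the median probe intensity was 107 to 313. The number of arrays limits the precision. A probe was kept for testing if one RNA was above the limit on at least 4 of the 6 arrays. This left 10 of the 14 receptor probes, for 7 of the 9 genes, and 31769 probes in all. PRLR and LHCGR had no kept probe. Of the 20 granulosa cell markers 19 were kept, among them the aromatase gene CYP19A1 and the inhibin subunit gene INHA, while the probe of the granulosa cell transcription factor FOXL2 was not.

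LHCGR could not be measured reliably in either RNA. The intensity of its brighter probe, EMBV3_33299, was 0.821 to 1.15 times the background limit in the cetrotide RNA and 0.886 to 1.04 times in the control RNA. Cetrotide RNA was above the limit on 3 of 6 arrays, all on slide 1 in Cy5, and control RNA on 2 of 6, both on slide 2, where control RNA was in Cy5. Both RNAs were thus above the limit only in the Cy5 channel. The other LHCGR probe, EMBV3_30987, was below the limit on all 6 arrays in both RNAs, at 0.700 to 0.949 times it. Of all probes on the array, 10.6% were likewise above the limit on no array for either RNA. No fold change is given for that probe.

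PRLR was also below the limit throughout. The intensity of its probe, EMBV3_42240, was 0.643 to 0.865 times the limit in the cetrotide RNA and 0.615 to 0.869 times in the control RNA, and no fold change is given. GHR was above the limit on all 6 arrays in both RNAs but close to it, at 1.03 to 1.27 times the limit with cetrotide and 1.07 to 1.49 times in controls. The other kept genes were brighter. The leading probe of PGRMC1, the one with its highest mean intensity, was the farthest from its limit among the 14, at 23.6 to 72.2 times with cetrotide and 35.6 to 176 times in controls. Each of these ratios sets a spot against its own array and channel, and brightness is not a measure of how much of one receptor there was against another.

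**Figure D1:**
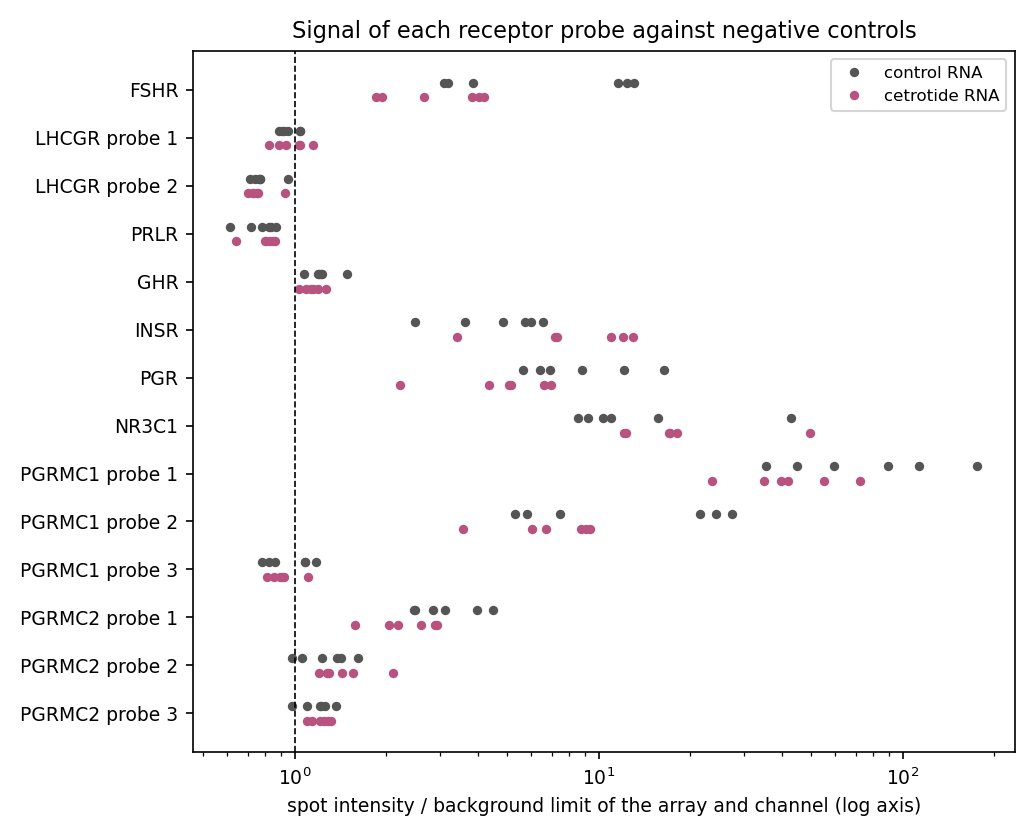
Spot intensity of each of the 14 receptor probes divided by the background limit of its array and channel (log axis), with 1 point for each of the 6 arrays and each RNA. The dashed line marks the limit. Points of LHCGR probe 1 lie on both sides of it (0.821 to 1.15), those of LHCGR probe 2 and PRLR all lie to its left, and those of PGRMC1 probe 1 reach 176.

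Among the kept receptors the mean log2 ratios of cetrotide over control ranged from -1.02 for FSHR to 1.11 for INSR. INSR and NR3C1 had leading probes above 0, and FSHR, PGR, PGRMC1, PGRMC2 and GHR below 0. No receptor probe passed an adjusted p of 0.05 with limma, and neither did any other probe (0.00% higher and 0.00% lower of 31769, with a lowest adjusted p of 0.185). At an unadjusted p under 0.05, 1 of the 10 kept receptor probes was higher with cetrotide (INSR) and 2 were lower (the leading probes of PGRMC1 and PGRMC2), where 7.84% of all kept probes were higher and 6.58% lower. The log2 ratios of the receptor probes were larger in size than those of most probes, with a median absolute value of 0.58 against 0.13. Their spread over replicates was larger too, with a median SD of 0.45 against 0.19. The probes compared were not matched for brightness, and the receptor probes include 2 of PGRMC1 and 3 of PGRMC2.

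**Figure D2:**
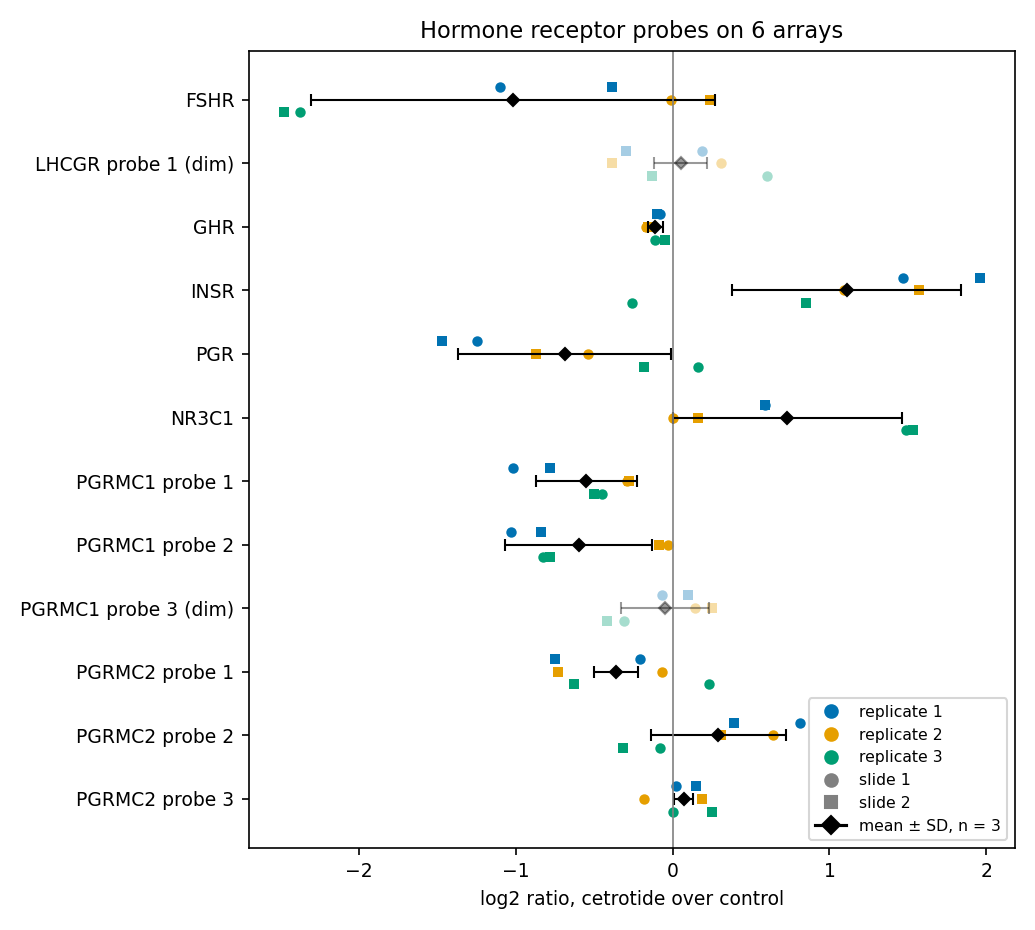
Log2 ratio of cetrotide over control (horizontal axis) for the 12 receptor probes above the background limit on at least 1 array. Circles are the arrays of slide 1, squares those of slide 2, colours are the 3 dye-swap replicates, and diamonds with bars are the mean ± SD over replicates (n = 3). Pale probes marked dim were not kept. FSHR spreads from -2.48 to 0.24 over the arrays, and the circles of PGRMC2 probe 1 lie to the right of its squares.

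FSHR, through which granulosa cells respond to FSH, had the largest spread of the kept receptors. The log2 ratio of its probe, EMBV3_21603, was -0.75, 0.11 and -2.43 in the 3 replicates. The FSHR level, a log2 channel value, was 9.03, 9.35 and 8.18 in the cetrotide RNA of replicates 1, 2 and 3, and 9.77, 9.24 and 10.61 in the control RNA. The highest control level and the lowest cetrotide level thus came from the same replicate, and the groups overlapped through replicate 2. The mean log2 ratio was -1.02 ± 1.29 (SD, n = 3), which is 2.03-fold lower with cetrotide, with a 95% confidence interval from -2.74 to 0.69 and an adjusted p of 0.538 in limma. Both slides gave a mean below 0, -1.16 on slide 1 and -0.88 on slide 2, and the slides gave -1.10 and -0.39 in replicate 1, -0.01 and 0.24 in replicate 2, and -2.38 and -2.48 in replicate 3. Without replicate 3 the mean was -0.32.

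The markers of granulosa cells and of other cell types also differed between these replicates. The median log2 ratio of the 19 kept granulosa markers was -0.21, 0.17 and -1.41 in replicates 1, 2 and 3, the same order as that of FSHR. The median of the 10 kept of 12 epithelial markers, such as the keratin gene KRT8 and EPCAM, was 0.44, 1.31 and 3.25. That of the 14 kept of 16 leukocyte markers was 0.44, -0.03 and 0.86, that of the 9 kept of 12 endothelial markers 0.99, 0.02 and 0.66, and that of the 13 theca and stroma markers 0.55, 0.04 and 0.02. Markers of 1 list went both ways. Means were above 0 for 10 theca and stroma markers and below for 3, and for 8 and 11 granulosa markers. COL3A1 of stroma had 8.37, 0.40 and 4.98, and PTCH1 -1.35, -0.50 and -1.16. STAR of the granulosa list had 5.39, 2.00 and 1.99, and NR5A2 -1.21, -0.81 and -1.59. TAGLN, GLI1, CYP17A1 and PDGFRB had low levels, from 6.82 to 6.92. The summed linear level of the granulosa markers was 70715 to 161534 in the cetrotide RNA and 141148 to 176735 in the control RNA, and that of the epithelial markers 14573 to 173728 and 1911 to 14000. The sums for leukocyte markers were 5839 to 10861 and 3010 to 5653, for endothelial markers 1354 to 3799 and 1324 to 1650, and for theca and stroma markers 27994 to 82849 and 16624 to 23562. Among the defining markers, CDH1 and KRT5 of epithelium, PECAM1, FLT1 and TIE1 of endothelium and CSF1R and ITGB2 of leukocytes were not kept. The part of these cells in the receptor values was not tested. In bulk samples such as these, fewer cells of a type and less RNA per cell cannot be told apart.

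**Figure D3:**
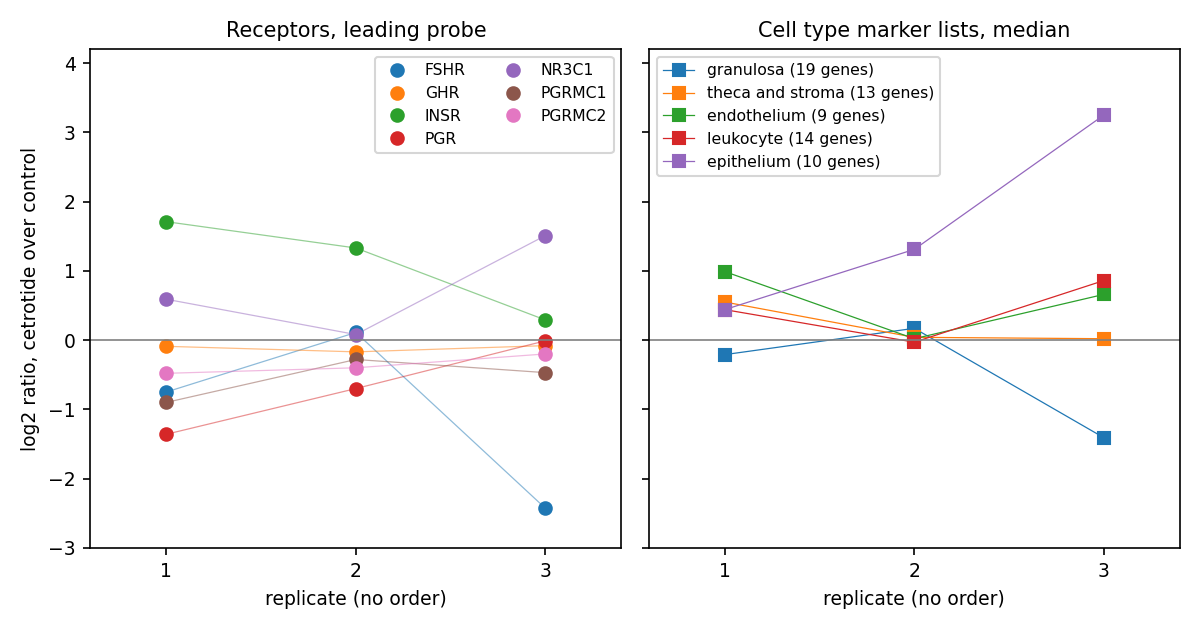
Log2 ratio of cetrotide over control in each of the 3 replicates for the leading probe of 7 receptors (left) and as the median of 5 lists of cell type markers (right). Lines join the values of 1 gene or list and carry no order. FSHR (-2.43) and the granulosa markers (-1.41) are lowest in replicate 3, where NR3C1 (1.51) and the epithelial markers (3.25) are highest.

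The genes whose 6 array ratios most resembled those of FSHR were ZSCAN2 (Pearson r = 0.999), NBAS (0.999) and PRPS1 (0.996). PRPS1, which makes the nucleotide precursor phosphoribosyl pyrophosphate, had log2 ratios of -0.31, 0.25 and -1.60 in the replicates, and ZSCAN2 -0.28, 0.24 and -1.27. NBAS had the same shape at a smaller size (0.01, 0.17 and -0.25). With 3 pairs of arrays that share their RNA, such resemblance was common: 981 of 12382 named genes had r over 0.9 with FSHR.

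For LHCGR, the neighbour of FSHR in the genome with 0 other protein-coding genes between them in the ARS-UCD2.0 assembly, the same measure describes intensities at the background limit. The log2 ratios of EMBV3_33299 were -0.06, -0.04 and 0.24 in the replicates (mean 0.05 ± 0.17, n = 3). They were above 0 on the 3 arrays of slide 1 (mean 0.37) and below 0 on the 3 arrays of slide 2 (mean -0.27), so that their sign went with slide and dye orientation. The genes with the most similar array ratios, ZNF761 (r = 0.998), DUOX1 (0.998) and TMEM135 (0.997), are therefore given by name only. A difference of LHCGR between the groups was not detectable at this signal.

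INSR had the highest mean log2 ratio of the receptors. Insulin acts on granulosa cells through this receptor together with the related receptor of insulin-like growth factor 1. The INSR ratios of EMBV3_34720 were 1.71, 1.33 and 0.29 in replicates 1, 2 and 3. The INSR level was 10.63, 11.03 and 9.80 with cetrotide and 8.92, 9.70 and 9.50 in controls. All 3 cetrotide levels were above all 3 control levels, though 9.80 and 9.70 were close, and 9.17% of all kept probes also had levels that did not overlap with cetrotide higher. The mean log2 ratio was 1.11 ± 0.73 (n = 3), or 2.16-fold, with a 95% confidence interval from 0.13 to 2.10, an unadjusted p of 0.0359 and an adjusted p of 0.309 in limma. The ratio depended on the slide, at 0.77 on slide 1 and 1.46 on slide 2. The dye term of a fit over all 6 arrays had an adjusted p of 0.0201 for INSR, as it was under 0.05 for 52.6% of all kept probes. In replicate 3 the slides differed in sign, at -0.26 and 0.85. The receptor had an unadjusted p under 0.05 in neither the fit without replicate 1 nor that without replicate 2 (means 0.81 and 1.00), while without replicate 3 its mean was 1.52.

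GHR, whose ligand acts on the follicle directly and through insulin-like growth factors, had the smallest mean log2 ratio in size among the leading kept probes. Its ratios were -0.09, -0.17 and -0.08 in replicates 1, 2 and 3. The mean was -0.11 ± 0.05 (n = 3), with an adjusted p of 0.538 in limma and a 95% confidence interval from -0.30 to 0.08. All 6 arrays were below 0, as for 7.44% of all kept probes. The levels overlapped, at 7.09 ± 0.08 with cetrotide and 7.20 ± 0.11 in controls (SD, n = 3). At 1.03 to 1.49 times the background limit, the GHR ratio varied with the processing. It was -0.15 with a background offset of 16, -0.02 with median pixel intensities and -0.03 in the authors' deposited ratios. An offset draws the ratios of dim spots towards 0, and how far it did so for GHR was not tested. The size of any difference in transcript is thus not known.

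PGR, the progesterone receptor that the LH surge induces in granulosa cells, was above the limit on every array in both RNAs. Its control levels were almost identical at 10.40, 10.33 and 10.32, and its cetrotide levels were spread out at 9.03, 9.62 and 10.31. The SD over replicates was 0.04 in controls and 0.64 with cetrotide. All cetrotide levels were below all control levels, the nearest being 10.31 and 10.32, and 8.43% of kept probes had levels that did not overlap with cetrotide lower. The log2 ratios were -1.36, -0.70 and -0.01 in replicates 1, 2 and 3, so that the replicate with the lowest FSHR ratio was the one in which PGR hardly differed. The mean was -0.69 ± 0.68 (n = 3), or 1.61-fold lower, with a 95% confidence interval from -1.60 to 0.22 and an adjusted p of 0.449 in limma. It was -0.54 on slide 1 and -0.84 on slide 2, and without replicate 1 it was -0.35.

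NR3C1, the glucocorticoid receptor, was the only kept receptor probe above 0 on all 6 arrays, 1 of them at 0.00 when rounded. Of all kept probes 7.67% were above 0 on all 6. Its ratios were 0.59, 0.08 and 1.51 in replicates 1, 2 and 3, with slides that were nearly equal within each replicate (1.49 and 1.53 in replicate 3). The NR3C1 level was 12.27, 11.07 and 11.75 with cetrotide and 11.68, 10.99 and 10.24 in controls. The cetrotide level was above the control level in each replicate, and the groups overlapped because the cetrotide level of replicate 2 was below the control level of replicate 1. The mean log2 ratio was 0.73 ± 0.73 (n = 3), or 1.66-fold, with a 95% confidence interval from -0.25 to 1.70 and an adjusted p of 0.452 in limma. Without replicate 3 it was 0.34. NR3C1 is used by nearly every cell type, and its replicates had the same order as those of the leukocyte markers (0.44, -0.03 and 0.86). That order was the reverse of the granulosa markers (-0.21, 0.17 and -1.41), and the epithelial, endothelial and theca and stroma lists had other orders. With 3 replicates, a shared order is easily met and does not point to a source. The part of other cells in this value was not tested.

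**Figure D4:**
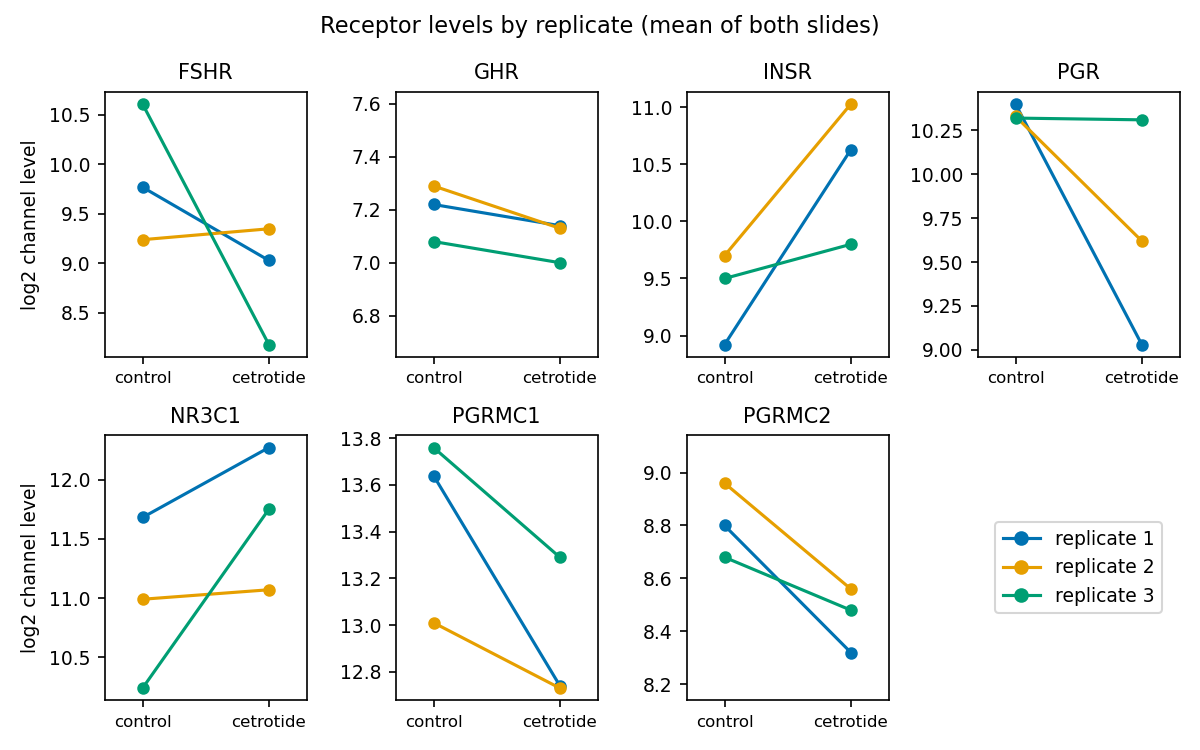
Log2 channel level of the leading probe of 7 receptors in the control RNA and the cetrotide RNA of each replicate (mean of both slides), with a line joining the levels of 1 replicate. Each panel has its own vertical axis, so levels are not compared between receptors. The 3 control levels of PGR (10.32 to 10.40) lie together while its cetrotide levels run from 9.03 to 10.31, and those of FSHR cross in replicate 2.

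PGRMC1 had log2 ratios below 0 on every array for both of its kept probes, as did 7.44% of all kept probes. The leading probe, EMBV3_07237, had -0.90, -0.28 and -0.47 in replicates 1, 2 and 3, with a mean of -0.55 ± 0.32 (n = 3), or 1.47-fold lower. Its 95% confidence interval ran from -1.01 to -0.10, its unadjusted p was 0.0292 and its adjusted p 0.289 in limma. The means of the slides were close, at -0.59 and -0.52. The level was 12.74, 12.73 and 13.29 with cetrotide and 13.64, 13.01 and 13.76 in controls. Each replicate was lower with cetrotide, and the groups overlapped because cetrotide replicate 3 was above control replicate 2.

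The second kept PGRMC1 probe, EMBV3_42040, had -0.93, -0.06 and -0.80 in the same replicates, with a mean of -0.60 ± 0.47 and an adjusted p of 0.371. Both probes were thus closest to 0 in replicate 2. The third probe, EMBV3_06817, was above the background limit on 1 array for the cetrotide RNA and on 3 for the control RNA and was not kept. Probes of 1 gene share the same RNA and are not separate evidence. Without replicate 1 the mean of the leading probe was -0.38, and its unadjusted p was then 0.0717.

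The 3 probes of PGRMC2 disagreed. The leading probe, EMBV3_10447, had log2 ratios of -0.48, -0.40 and -0.20 in the replicates, a mean of -0.36 ± 0.14 (n = 3) and an adjusted p of 0.262 in limma, the lowest of the receptor probes. Its levels did not overlap, at 8.32 to 8.56 with cetrotide and 8.68 to 8.96 in controls. Of all kept probes, 8.43% likewise had levels that did not overlap with cetrotide lower. The difference of EMBV3_10447 came from slide 2, where the mean was -0.70, while on slide 1 it was -0.02. The dye term of the 6-array fit had an adjusted p of 0.000741. EMBV3_38441 had 0.60, 0.48 and -0.20, a mean of 0.29 ± 0.43 and an adjusted p of 0.614. EMBV3_15121 had a mean of 0.07 ± 0.06 and an adjusted p of 0.709. Both of these were within 0.982 to 2.10 times the background limit. Of the 10 kept receptor probes, 2 had slide means more than 0.50 apart (INSR and the leading PGRMC2 probe), against 20.0% of all kept probes.

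The pathways of these receptors were examined through lists of their partners and target genes, each gene by its brightest kept probe. No member of any list passed an adjusted p of 0.05 in limma, and the counts below are at an unadjusted p under 0.05, where 9.45% of the 12389 named genes were higher with cetrotide and 8.35% lower. The median log2 ratio of all named genes was -0.01.

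Downstream of FSHR and LHCGR, 3 of 20 kept genes of G protein signalling and receptor desensitisation were higher with cetrotide and 1 lower, and the median of the list was 0.11. ARRB2 (beta-arrestin 2), which uncouples activated receptors from their G protein, had a log2 ratio of 1.58 ± 0.41 (n = 3), above 0 on all 6 arrays, with 1.02 on slide 1 and 2.14 on slide 2. GNAI2, an inhibitory G protein alpha subunit, had 1.21 ± 0.67, with 0.94 on slide 1 and 1.47 on slide 2. The beta subunit GNB1 had 0.24 ± 0.02, with 0.08 on slide 1 and 0.39 on slide 2. PRKAR2B, a regulatory subunit of the cyclic AMP dependent kinase known to be induced by FSH in rodent granulosa cells, had -0.58 ± 0.42, with -0.18 on slide 1 and -0.98 on slide 2. The stimulatory alpha subunit GNAS had -0.06 ± 0.09 (0.25 on slide 1 and -0.36 on slide 2), with other probes at 0.31 and 0.09. It was chosen after its values were seen.

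Of the 12 FSH target genes, all kept, 2 were lower and 0 higher, and the median was -0.35. NR5A2, an orphan nuclear receptor needed for ovulation in mice, had -1.20 ± 0.39 by its brightest probe but -0.38 and 1.02 by the others. CYP19A1, which converts androgens to oestrogens, had -1.12, -0.38 and -1.52 in the replicates and a mean of -1.01 ± 0.57, with other probes at -0.10 and -0.54. INHBA, a subunit of activins and inhibins, had -0.67 ± 0.63 with -0.25 on slide 1 and -1.09 on slide 2. INHBB had -0.96 ± 1.07 with -1.77 on slide 1 and -0.15 on slide 2. The median of the list was -0.10, -0.04 and -1.05 in replicates 1, 2 and 3, lowest in the replicate in which FSHR and the granulosa markers were lowest. Of the 12 genes, 7 also stand in the granulosa marker list.

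Of the 22 kept genes of the JAK-STAT pathway used by PRLR and GHR, 5 were higher and 0 lower, with a median of 0.08. The transcription factor STAT3 had 0.62, 0.53 and 0.64 in the replicates and a mean of 0.60 ± 0.06, with other probes at -0.03 and 0.26. Its mean was 0.88 on slide 1 and 0.31 on slide 2. JAK1 had 0.41 ± 0.04, which came from slide 2 (0.81) and not slide 1 (0.01), and its other probe had 0.11. The phosphatase PTPN2 had 0.54 ± 0.29 and the feedback inhibitor SOCS3 0.44 ± 0.23. SOCS3 was near the background limit, with cetrotide RNA above it on 5 arrays and control RNA on 4. The fifth was SOCS1, another feedback inhibitor, with 1.12 ± 0.73 (1.42 on slide 1 and 0.82 on slide 2). It was named after its value was seen to complete the count. STAT5A and STAT5B, the STAT factors that prolactin and growth hormone are best known to activate, had -0.06 ± 0.10 and -0.04 ± 0.05. Both had low levels, 6.94 and 7.11 with cetrotide and 6.99 and 7.15 in controls, where GHR had 7.09 and 7.20. At such levels a background offset draws ratios towards 0, and its effect on STAT5A and STAT5B was not tested. These genes were chosen after their values were seen.

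Of the 26 kept genes of the insulin receptor pathway, 2 were higher and 1 lower, with a median of -0.01. IGF2R, which clears insulin-like growth factor 2, had 0.81 ± 0.46, with 1.09, 1.05 and 0.28 in the replicates. The glucose transporter SLC2A1 had 0.79 ± 0.50, with 0.43 on slide 1 and 1.14 on slide 2, and its other probe 0.22. MTOR, the kinase that couples insulin and nutrients to growth, had -0.23 ± 0.04. The adaptor SHC1 had 0.43 ± 0.36, with 0.13 on slide 1 and 0.73 on slide 2.

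Of the 16 kept chaperones and coregulators of steroid receptors, 2 were higher and 0 lower, with a median of 0.00. STUB1, a ubiquitin ligase that works with chaperones, had 0.79 ± 0.42, and FKBP4, a co-chaperone of steroid receptors, 0.25 ± 0.06, which came from slide 1 (0.46) more than slide 2 (0.04). BAG1 had -0.41 ± 0.30 with its other probe at 0.38, and NRIP1, a corepressor needed for ovulation in mice, had 0.81 ± 0.76 and its other probe 0.15.

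Of the 17 kept genes of glucocorticoid handling and of glucocorticoid receptor targets, 3 were higher and 0 lower, with a median of 0.38. TSC22D3, also called GILZ, a glucocorticoid-induced leucine zipper protein, had 0.42, 0.41 and 0.40 in the replicates. CEBPD had 0.49 ± 0.12 and its other probe 1.69. The metallothionein MT2A had 0.90 ± 0.44, with 0.53 on slide 1 and 1.27 on slide 2. ZBTB16 had 0.19 ± 0.05 and was near the background limit, with control RNA above it on 4 arrays. FKBP5, another well-known target of this receptor, had -0.31 ± 0.28 with other probes at -0.15 and 0.06; it was chosen after its values were seen. The median of the list was 0.15, 0.08 and 0.59 in replicates 1, 2 and 3, the same order as the ratios of NR3C1. The JAK-STAT list had that order too (0.10, 0.03 and 0.18).

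Of the 13 kept target genes of PGR, most of them known from mice, 2 were higher and 1 lower, with a median of 0.08. CTSL, a lysosomal protease annotated on the array as CTSL1, had -0.96 ± 0.34, below 0 on all 6 arrays. MT2A and ZBTB16 are members here too. ADAM8 had 0.25 ± 0.12, with -0.18 on slide 1 and 0.67 on slide 2. Values on both sides of 0 were also seen for ADAMTS1, a protease of cumulus expansion (1.27 ± 1.08), and CITED2 (-1.09 ± 0.83), which were chosen after their values were seen.

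Of the 6 kept membrane progestin receptors and partners of PGRMC1, 0 had a limma p under 0.05 before adjustment, and the median was -0.03. SERBP1, a binding partner of PGRMC1, had 0.29 ± 0.24 and its other probe 0.27. The membrane progestin receptor PAQR8 had -0.43, 0.51 and 1.98 in the replicates (mean 0.68 ± 1.21). PAQR6 had -0.06 ± 0.13 at low levels (7.23 with cetrotide, 7.29 in controls), and TMEM97 had -0.22 ± 0.82. PAQR7 and PAQR9 were not kept.

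**Figure D5:**
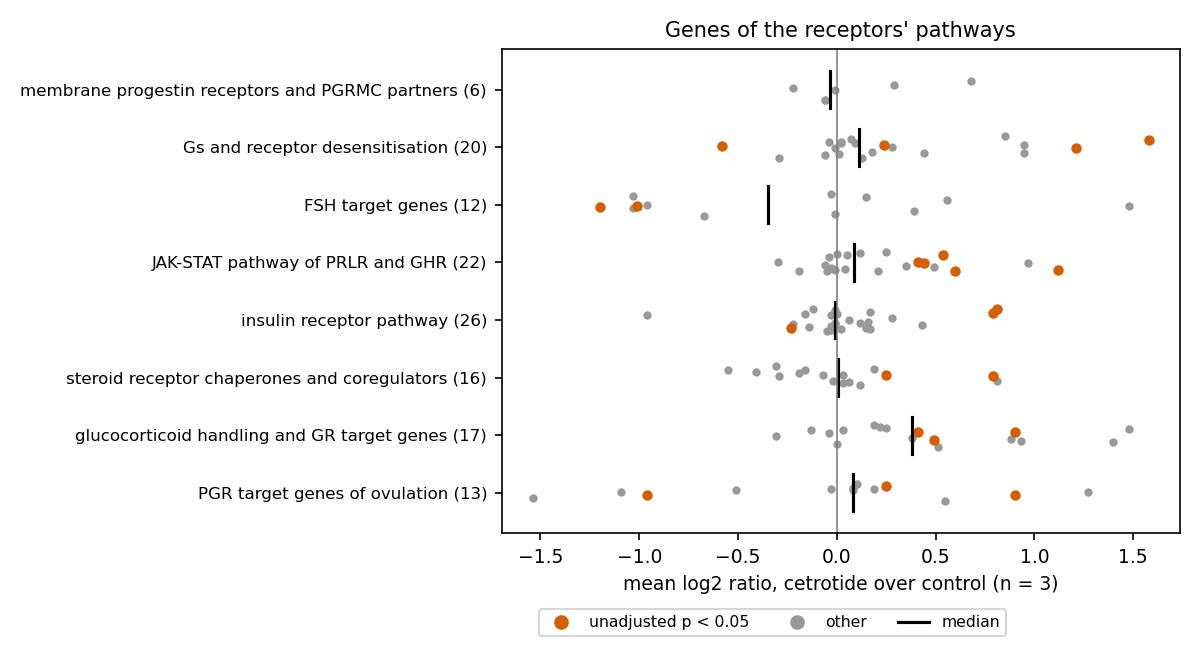
Mean log2 ratio of cetrotide over control (n = 3) of each kept gene in 8 pathway lists, with the number of genes in brackets, the median of each list as a black bar and genes with an unadjusted p under 0.05 in orange. The vertical scatter within a list carries no value. The medians run from -0.35 for the FSH target genes to 0.38 for the glucocorticoid list.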

How the data were processed

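The deposited scanner tables hold spot intensities and local background intensities for Cy3 and Cy5, and the authors also deposited processed log ratios, taken here as log2, whose column medians were -0.00191, -0.000108, 0.000134, 0.00229, 0.00214 and 0.00748. Those columns ran cetrotide over control. Their correlation with the normalized ratios used here was 0.844 to 0.943. Their slope on the raw scanner ratios, turned to cetrotide over control, was 0.828 to 0.930. The sources used here do not say how the columns were centred and normalized, and they served as an alternative. Per the labels' protocols, RNA was amplified over a pair of T7 rounds and labelled chemically.

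Background was corrected with normexp from mean spot and median local background intensities, with an offset of 50, before loess within arrays with control spots at weight 0, in limma 3.58.1 under R 4.3.3. Ratios were turned to cetrotide over control. Levels are log2 channel values after loess and Aquantile normalization. The test was limma's moderated test (lmFit, eBayes) of the mean of 3 averages, Benjamini-Hochberg adjusted over 31769 kept probes and tested on simulated data. An exact sign-flip permutation test of 3 replicates cannot go below a two-sided p of 0.25, so none was used. Symbols came from the platform annotation: 21790 probes had one, 1524 were updated through RefSeq synonyms (ARS-UCD2.0), and 21549 then matched RefSeq.

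Each array's deviation from the mean of its slide correlated at 0.898, 0.933 and 0.953 between equal area numbers and between -0.710 and -0.000372 otherwise. Deviations within a slide cancel each other, which lowers the values for unequal numbers. The ratios themselves correlated at 0.623, 0.440 and 0.760 between equal numbers and between -0.0347 and 0.305 otherwise. Equal numbers were therefore paired. Which cows an average holds is not given, and p-values measure only the spread between these samples. Slide and dye orientation go together. A dye effect that is equal on both slides cancels in the average. An effect that differs between the slides does not cancel fully, and it cannot be told apart from dye. All probes of the 9 genes were named, together with up to 4 genes per pathway list by smallest p and, for FSHR and LHCGR, the 3 genes with the highest Pearson r. Members and lists were chosen with earlier results of these data known. Alternatives were other background corrections, normalizations and filters, the deposited ratios, a replicate block, single slides and leaving out replicates.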

Additional observations from a re-analysis of the deposited data

How the results depend on the processing

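Over 15 alternatives per receptor, 131 of 135 log2 ratios of leading probes stayed on their side of the adjusted threshold or within the replicate spread. No receptor passed that threshold in the main fit, and few settings had any probe past it. The count was thus nearly fixed in advance and does not measure how stable the ratios were. It also includes LHCGR and PRLR, which were not kept. No tested receptor changed sign. On slide 2 alone PGRMC2 passed (-0.70, adjusted p = 0.0477), while on slide 1 it had -0.02; a single slide leaves the dye effect in. Without replicates in turn, the mean ran from -1.59 to -0.32 for FSHR, 0.81 to 1.52 for INSR, -1.03 to -0.35 for PGR, 0.34 to 1.05 for NR3C1, -0.69 to -0.38 for PGRMC1 and -0.44 to -0.30 for PGRMC2. The count of all probes past the adjusted threshold was 0 higher and 0 lower, but 721 and 251 on slide 2 alone and 440 and 299 with the area number as a replicate block over 6 arrays with a dye term. In that block fit adjusted p-values of the receptors were 0.117 or more (PGRMC1), with 0.130 for INSR, 0.180 for PGR, 0.184 for NR3C1 and 0.331 for FSHR, and it changed no receptor's call at the adjusted threshold. At an unadjusted p under 0.05, 1 receptor probe was higher and 2 lower; the counts were 2 and 4 with the replicate block, 0 and 1 on slide 1 alone, 0 higher with median centring, and 0 to 2 higher and 0 to 2 lower without replicates in turn, with 0 lower without replicate 1. The cause was not tested. The signal over background limits LHCGR, PRLR and GHR.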

Other observations

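Each kept receptor was set against the median of the 19 granulosa markers in the same replicate, a comparison chosen after the values were seen. FSHR and INSR then varied less over the replicates, and PGR, NR3C1, PGRMC1, PGRMC2 and GHR varied more. The log2 ratio of FSHR minus that median was -0.54, -0.05 and -1.01 in replicates 1, 2 and 3 (mean -0.54 ± 0.48, n = 3), where the SD of the FSHR ratio itself was 1.29. INSR stood 1.92, 1.17 and 1.71 above the markers (mean 1.60 ± 0.39, with an SD of 0.73 for the ratio itself). PGR had -1.16, -0.87 and 1.41 and PGRMC1 -0.70, -0.45 and 0.94, so that both lay below the markers in replicates 1 and 2 and above them in replicate 3. The mean difference was -0.21 for PGR, 1.21 for NR3C1, -0.07 for PGRMC1, 0.12 for PGRMC2 and 0.37 for GHR. PGRMC2 and GHR thus lay above the markers on average, while the means of their ratios were -0.36 and -0.11. The SD of the difference was 1.40 for PGR, 1.55 for NR3C1, 0.88 for PGRMC1, 0.95 for PGRMC2 and 0.86 for GHR. For the ratios themselves it was 0.68, 0.73, 0.32, 0.14 and 0.05. These differences have no test.

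No single pattern over replicates was shared by all receptors, though some had the same order. PGR and PGRMC2 were both lowest in replicate 1 and highest in replicate 3. GHR and NR3C1 were both lowest in replicate 2 and highest in replicate 3, and FSHR and INSR were both lowest in replicate 3. The lowest ratio of FSHR was in replicate 3 and that of PGR in replicate 1, and the highest ratio of INSR was in replicate 1 and that of NR3C1 in replicate 3. In the authors' deposited table the mean log ratios were -1.06 for FSHR, 0.99 for INSR, -0.73 for PGR, 0.67 for NR3C1, -0.49 for PGRMC1, -0.30 for PGRMC2 and -0.03 for GHR.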
